A study of Oryctolagus cuniculus with 134 samples.

Results

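The potassium, calcium and sodium channel genes of the rabbit aorta and heart valves were taken from the gene symbol alone, without regard to their levels. Of 29587 genes in the deposited tables, 14716 carried a symbol, and 108 of these named a potassium channel subunit (KCN followed by a letter), a voltage-gated calcium channel subunit (CACNA, CACNB or CACNG) or a voltage-gated sodium channel subunit (SCN, a number and A or B). By role, they were 34 pore-forming (alpha) subunits of voltage-gated potassium channels, 13 inward rectifier potassium channels, 11 two-pore potassium channels, 8 calcium- or sodium-activated potassium channel subunits and 11 further potassium channel partners. For calcium there were 7 alpha1, 3 beta, 6 gamma and 2 alpha2delta subunits. For sodium there were 10 alpha and 3 beta subunits.

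The 134 libraries came from 27 male New Zealand White rabbits, and from 5 tissues: a ring of the proximal aorta (Ao), and the aortic (AoV), mitral (MV), pulmonary (PV) and tricuspid (TV) valves. Rabbits entered a protocol of 16 weeks at 12 weeks of age. The Ctrl rabbits ate chow without vitamin D2. The CHT rabbits ate 0.3% cholesterol and the Lard rabbits 5% lard, both with vitamin D2 at 25000 U per day for each 2.5 kg of body weight for 15 days. The IR/CHT rabbits had the CHT diet and vitamin D2, and after 8 weeks their hearts were irradiated with 24 Gy in 3 fractions of 8 Gy. The study's methods, in describing its irradiation-only group, state that the beam was aimed at the thoracic aorta and aortic valve. They give no separate dose for the other valves. There were 7 Ctrl, 6 CHT, 7 Lard and 7 IR/CHT libraries per tissue, except for 6 MV Ctrl libraries. No libraries of vitamin D2 alone or of irradiation alone were analysed here, so that the fats cannot be told apart from vitamin D2 against Ctrl, and the effect of irradiation can be read only on top of CHT.

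Ion channels are membrane proteins that open a path for ions, and those described here are named for the ion that they mainly pass. In smooth muscle and in heart muscle, calcium entry through the L-type channel, whose pore is encoded by CACNA1C and whose partners by CACNB2 and CACNA2D1, starts contraction. Potassium channels let the membrane return to rest. Large-conductance calcium-activated channels (KCNMA1 with the beta subunit KCNMB1), voltage-gated channels such as that of KCNA5, and ATP-sensitive channels (KCNJ8) set the tone of arteries. The fast upstroke of the action potential in heart muscle and nerve is carried by sodium channels. Leukocytes use potassium channels such as that of KCNN4 to keep calcium entry going. The valve leaflet is made mainly of fibroblast-like interstitial cells under an endothelium, and a valve cut from the heart carries a varying edge of heart muscle.

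Levels are counts scaled to a common library size (CPM), and 3 values given together are the lowest, the median and the highest library of a group. CPM does not correct for gene length, so that levels are compared only within a gene. Library totals ran from 13564979 to 50577676 counts with a median of 18235577, and 1 CPM is 13.6 counts in the smallest library. Fold changes are on the log2 scale, from edgeR's quasi-likelihood test with Benjamini-Hochberg adjustment over all genes tested, and a gene is called higher or lower at an adjusted p under 0.05 and a change over 1.5-fold. Since whole tissue was sequenced, fewer cells of a type and less RNA per cell cannot be told apart. Of the 108 genes, 59 passed the filter on low counts in Ao, 61 in AoV, 66 in MV, 52 in PV and 60 in TV. In all 5 tissues 44 passed, and in none 33.

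The tissues carried the markers of their labels. Summed smooth muscle markers (7 of 10 listed genes found) stood at 84256, 104901 and 118503 CPM in Ao and at 1117, 1284 and 1792 CPM in AoV of Ctrl rabbits. Heart muscle markers (18 of 24 found, TCAP at 0 in every library) stood at 748, 12154 and 46091 CPM in TV, 47.7, 241.4 and 5841 CPM in PV and 217, 1353 and 2687 CPM in MV of Ctrl rabbits. In AoV the Ctrl libraries held more of them (225, 890.2 and 13382 CPM) than the CHT (14.4, 70.8 and 379 CPM), Lard (25.3, 86.7 and 264.6 CPM) and IR/CHT (26.1, 84.2 and 317 CPM) libraries. Single libraries stood apart: AoV Ctrl L240 and Ao IR/CHT L566 held the most heart muscle markers of their tissues, and PV IR/CHT L275, TV Ctrl L168 and TV IR/CHT L276 the fewest endothelial markers of their groups. Plate 2 held every Ao library and only some of the valve libraries, so that plate and tissue are partly confounded between Ao and valves. Plate 1 held each CHT library of AoV and of MV, so that in these valves plate and CHT are partly confounded.

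Several genes chosen as the one with the most reads of their role in a tissue, a choice that depends on gene length and on treatment and ranks no levels, are given here in Ctrl rabbits. SCN2A, a sodium channel alpha subunit best known from neurons, stood at 26.3, 41.4 and 48.2 CPM in Ao, at 36.9, 61.3 and 65.2 CPM in PV and at 25.4, 40.9 and 49.1 CPM in TV, and all 3 ranges overlapped. SCN7A, an atypical sodium channel that senses sodium, stood at 18.9, 31 and 43.2 CPM in Ao, 0.105, 2.15 and 6.69 CPM in AoV, 2.69, 5.45 and 6.23 CPM in MV, 0.527, 0.842 and 5.92 CPM in PV and 2.52, 25.9 and 53.9 CPM in TV. Its Ao range lay above those of AoV, MV and PV, and within that of TV, the widest. KCNQ5, a slowly opening voltage-gated potassium channel, stood at 7.81, 13.6 and 17.3 CPM in Ao, 24.5, 28.5 and 35.1 CPM in MV, 24.9, 28 and 38.5 CPM in PV and 13.1, 16.9 and 22.4 CPM in TV, and its Ao range lay below those of MV and PV and overlapped with that of TV. KCNJ2, an inward rectifier that holds the resting potential of heart muscle, stood at 1.65, 9.06 and 13.6 CPM in AoV, 3.64, 11 and 22.5 CPM in MV, 8.98, 15.7 and 20.6 CPM in PV and 5.32, 28.7 and 56.6 CPM in TV, ranges that overlapped. The sodium channel beta subunit SCN3B stood at 3.42, 5.54 and 6.85 CPM in PV and 0.841, 2.2 and 2.55 CPM in TV, without overlap, and the two-pore channel KCNK15 at 0.643, 3.45 and 4.97 CPM in Ao and 0.266, 0.845 and 1.9 CPM in PV, with overlap. No gamma subunit of calcium channels except CACNG6 passed the filter in any tissue.

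On chow, the aorta and the valves carried different channel genes. KCNAB1 (ENSOCUG00000007885), a partner of voltage-gated potassium channels, stood at 249.5, 357 and 411 CPM in the 7 Ao libraries and at 6.7, 11.3 and 18.2 CPM in the 27 valve libraries (log2 fold change 4.93, SE 0.11, adjusted p = 4.9e-26). KCNMA1 (ENSOCUG00000009543) stood at 455, 657 and 831 CPM in Ao and 33.1, 63.9 and 85.8 CPM in valves (3.38, SE 0.10, adjusted p = 5.49e-24), and KCNMB1 (ENSOCUG00000000539) at 80.8, 105 and 134 CPM and 1.56, 10.7 and 21.5 CPM (3.58, SE 0.23, adjusted p = 8.24e-15). Each Ao library exceeded each valve library for all 3 genes. Of the 68 channel genes tested, 16 were higher and 29 lower in Ao, while 34.1% of all genes tested were called in either direction, 14.5% higher and 19.5% lower. The median over the channel genes was -0.70, against -0.01 over all genes.

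Of the 16 higher genes, 10 were on a list of channels of vascular smooth muscle. Of 13 tested genes on that list, 10 were higher and 1, KCNQ5, lower, with a list median of 2.61. KCNA5 stood at 26.6, 59.9 and 114 CPM in Ao and 0.841, 2.64 and 8.05 CPM in valves (4.36, SE 0.21 on the log2 scale). KCNJ8 stood at 46.3, 59.9 and 87.8 CPM and 1.92, 7.63 and 19.2 CPM (3.22, SE 0.18), and the sodium-activated channel KCNT2 at 39.2, 54.5 and 79.1 CPM and 0.749, 8.23 and 22.7 CPM (3.01, SE 0.18). None of these 3 genes overlapped between the tissues. KCNH2, which carries a repolarizing current of the heart, was also higher in Ao, at 17.6, 38.6 and 70.3 CPM against 0.132, 1.6 and 6.26 CPM (4.56, SE 0.32). CACNA1C (ENSOCUG00000011599) stood at 111, 217 and 248.005 CPM in Ao and at 13.3, 30.3 and 189.7 CPM in valves (2.61, SE 0.19). Its groups overlapped by 1 library of each, TV Ctrl L243, the valve library with the most heart muscle markers, and Ao Ctrl L551. Smaller differences were those of its partners CACNA2D1 (0.97, SE 0.14) and CACNB2 (0.95, SE 0.17). Potassium channel partner KCNE4 (4.02), SCN7A (2.69), KCNA2 (1.93) and SCN3A (1.19) were higher as well.

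KCNK2 (ENSOCUG00000008629), a two-pore channel that responds to stretch, was the gene lower in Ao with the smallest p. It stood at 0.252, 0.448 and 1.35 CPM in Ao and 6.69, 22.6 and 80.9 CPM in valves (-5.21, SE 0.39, adjusted p = 5.49e-13), and KCNJ5, a subunit of the G protein-gated rectifier that slows the heart, at 0, 0.452 and 0.882 CPM and 6.39, 21.4 and 32.8 CPM (-5.44, SE 0.42, adjusted p = 1.07e-12). KCNS3, a silent subunit that modifies other potassium channels, stood at 0.189, 0.424 and 0.579 CPM and 0.675, 3.98 and 12.5 CPM (-3.45, SE 0.36). The L-type subunit CACNA1D, known from the pacemaker, stood at 0.317, 0.903 and 1.98 CPM and 2.46, 5.63 and 68.3 CPM (-3.04, SE 0.39). For these 4 genes every valve library lay above every Ao library. KCNJ2 stood at 0.252, 1.22 and 2.69 CPM and 1.65, 14.2 and 56.6 CPM and overlapped (-3.32, SE 0.47). Of 15 tested genes on a list of heart muscle channels, 5 were higher and 7 lower in Ao, where 14.5% and 19.5% of all genes were. CACNG6 had 2 counts in all over the 7 Ao libraries against 0, 0.274 and 5.83 CPM in valves (-4.18, SE 1.14), a fitted value that rests on few counts. KCNH5, at 0 in all 7 Ao libraries, was at least 1.64-fold lower than in valves when set against a floor of 3 counts per library. Against that floor CACNG6 was at least 3.75-fold lower. Both passed the filter only through valve libraries, so their differences are descriptions, and both stay among the genes counted as lower. Of 10 sodium channel genes tested, 6 were lower and 2 higher, against the same shares of all genes. Among those lower were SCN1A (-1.87), SCN9A (-1.88), SCN8A (-2.03) and SCN3B (-1.63), while SCN2A (-0.33) and SCN2B (-0.26) did not pass. With the heart muscle score as a covariate 39 channel genes and 38.9% of all genes were called, and CACNA2D3, lower in Ao at -1.30, turned to 0.80. With the plate as a covariate 42 of the channel gene calls between Ao and valves held and 3 were lost.

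**Figure D1:**
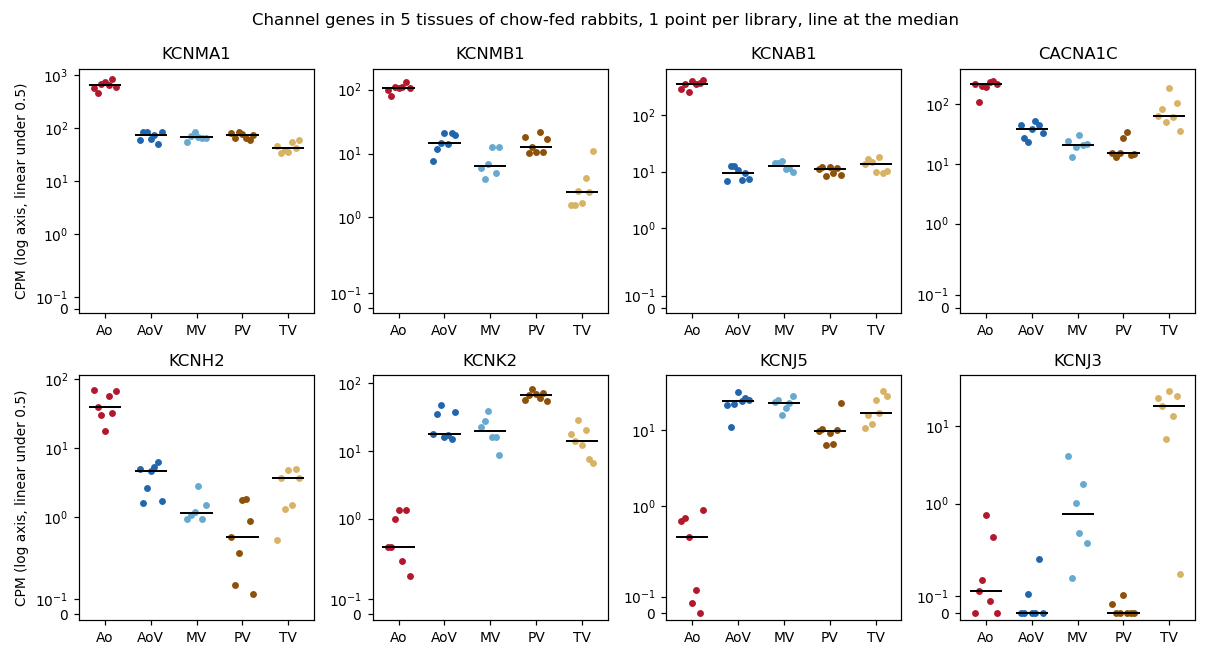
CPM of 8 channel genes in each Ctrl library of the 5 tissues, with a line at the median; the vertical axis is logarithmic and turns linear under 0.5 CPM. KCNMA1, KCNMB1, KCNAB1 and KCNH2 were highest in every Ao library, CACNA1C in Ao overlapped with TV, KCNK2 and KCNJ5 were lowest in Ao, and KCNJ3 was highest in TV in 6 of 7 libraries.

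Within the chow-fed valves, the valves between atrium and ventricle (MV and TV, 13 libraries) were compared with the valves at the arterial outlets (AoV and PV, 14 libraries). Of 68 channel genes, 15 were higher and 5 lower in MV and TV, where 5.82% of all genes tested were called, 4.44% higher and 1.38% lower. SCN3A, a sodium channel alpha subunit best known from neurons, stood at 0.808, 4.16 and 16.1 CPM in MV and TV and at 0, 0.167 and 0.466 CPM in AoV and PV (4.48, SE 0.44, adjusted p = 1.1e-08), with no overlap. KCNJ3, the partner of KCNJ5 in the G protein-gated rectifier of the atria, stood at 0.202, 4.06 and 28 CPM and 0, 0 and 0.316 CPM (6.63, SE 0.72, adjusted p = 6.66e-08). It was 0 in most outlet valve libraries and low in a few MV and TV libraries, so that the groups overlapped. SCN1A stood at 9.09, 19.7 and 29.3 CPM and 1.57, 4.51 and 17.2 CPM (1.73, SE 0.23). KCNIP4 and KCND2, both of the fast transient potassium current, were at 0 in all 14 outlet valve libraries and at least 14.7-fold and 4.93-fold higher in MV and TV, against the same floor. Both passed the filter only through libraries of MV or TV, so their difference is a description, and both are among the 15. KCNH7 (4.47, SE 0.68) and SCN7A (2.57, SE 0.40) were higher too.

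Lower in MV and TV were KCNT2, at 0.749, 3.97 and 9.3 CPM against 5.79, 10.1 and 22.7 CPM (-1.42, SE 0.20), KCNJ8, at 1.92, 3.41 and 9.51 CPM against 6.24, 9.2 and 19.2 CPM (-1.36, SE 0.19), and KCNMB1, at 1.56, 4.1 and 12.6 CPM against 7.63, 14.4 and 21.5 CPM (-1.51, SE 0.25). KCNK2 (-1.20, SE 0.24) and SCN9A (-0.90, SE 0.23) were the others. All 5 overlapped between the groups. Heart muscle markers moved with this contrast, and with the heart muscle score as a covariate 11 of the 20 genes, and 2.76% of all genes, were called. SCN3A (4.78), SCN1A (1.63), KCNJ3 (5.09), KCNT2 (-1.65), KCNJ8 (-1.39) and KCNMB1 (-1.30) were among them. CACNA1C, higher at 0.67, went to -0.02, and CACNA2D3 fell from 2.80 to 1.26 with an adjusted p of 0.201. Without TV Ctrl L168 the comparison called 23 genes, 15 higher and 8 lower.

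The relation of channel genes to heart muscle markers was measured within each tissue as the slope of a gene on the heart muscle score. The score is the mean log2 CPM of heart muscle markers, none of them a channel gene. Treatment was in the model, and genes were called at an adjusted p under 0.05. A slope is an association, and its source was not tested. In TV, 22 of 60 channel genes had a slope, 15 up and 7 down, against 11.2% of all genes tested, 7% up and 4.2% down. CACNG6 had the steepest, at 1.45, SE 0.14, adjusted p = 3.89e-08, in log2 CPM for each unit of the score. Its TV Ctrl libraries stood at 0.114, 1.41 and 5.83 CPM. SCN7A, at 2.52, 25.9 and 53.9 CPM in TV Ctrl, had a slope of 0.79, SE 0.11, and KCNIP2, a partner of the transient potassium current of heart muscle, at 3.49, 4.39 and 24.5 CPM, one of 0.56, SE 0.11. The slopes of CACNA1C (0.40, SE 0.06) and CACNB2 (0.30, SE 0.05) were shallower, with CACNA1C at 35.3, 62.5 and 189.7 CPM in TV Ctrl. Of 16 tested genes on the heart muscle channel list 9 had a slope, all upward: besides CACNA1C, CACNB2 and KCNIP2 these were KCNA4 (0.67), KCNJ3 (1.07), KCND2 (0.90), KCND3 (0.87), CACNA2D1 (0.14) and KCNJ2 (0.27). The slopes of CACNA2D3 (0.83), KCNH7 (0.97), CACNA1D (0.53) and KCNA2 (0.35) were upward as well. Downward slopes were those of, among others, KCNMB1 (-0.38, SE 0.07), KCNG4 (-0.66), KCNA6 (-0.42), KCNMA1 (-0.17), KCNQ5 (-0.14) and SCN2A (-0.11). The count fell to 13 without TV Ctrl L243 and to 14 without TV Lard L251.

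The other tissues had few or no such genes. In MV 5 of 66 had a slope, all upward, against 1.31% of all genes tested: KCNJ3 (1.02, SE 0.14, adjusted p = 1.24e-05), CACNA2D3 (0.71, SE 0.12), KCNIP4 (1.04, SE 0.19), KCNH7 (0.88, SE 0.16) and SCN8A (0.77, SE 0.16). Without MV Lard L544 there were 3. KCNJ3 in MV stood at 0.202, 0.736 and 4.06 CPM in Ctrl and at 0.571, 1.79 and 5.91 CPM in IR/CHT. In PV CACNA2D3 alone had a slope (0.40, SE 0.09, adjusted p = 0.0191), against 1.13% of all genes, and it was lost without PV Ctrl L200, PV Lard L250 or PV Lard L271. In Ao and in AoV edgeR called none, against 0.189% and 0.396% of all genes, and 8 and 0 channel genes had an unadjusted p under 0.05.

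**Figure D2:**
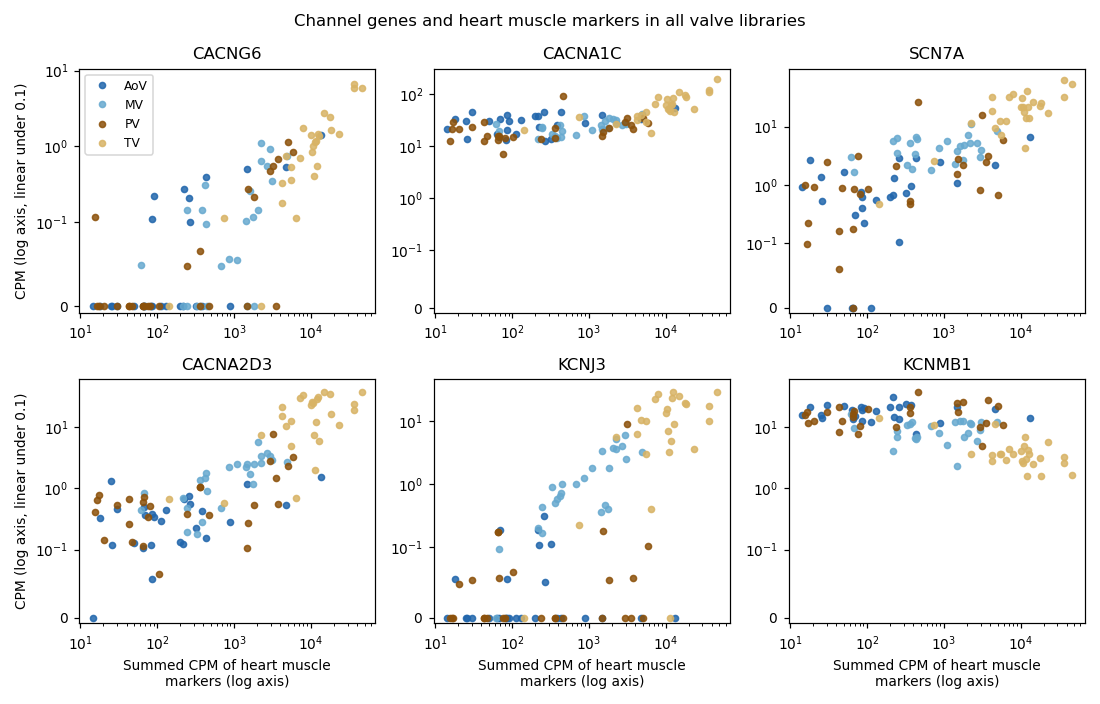
CPM of 6 channel genes against the summed CPM of heart muscle markers in all valve libraries, 1 point per library, with both axes logarithmic (the vertical one linear under 0.1 CPM). Within TV, CACNG6, CACNA1C, SCN7A, CACNA2D3 and KCNJ3 rose with the markers and KCNMB1 fell.

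The comparisons with Ctrl in 1 tissue share the same Ctrl libraries, and their values are therefore set side by side and not counted as independent. In the aorta under CHT, 7 channel genes were higher and 8 lower of 59 tested, where 19.4% of all genes were called, 14.2% higher and 5.18% lower. Under IR/CHT 17 were higher and 14 lower, where 34.3% of all genes were called, 22.2% higher and 12.2% lower. The median over the channel genes was 0.05 under CHT and 0.00 under IR/CHT, against -0.04 and 0.00 over all genes.

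Under IR/CHT, the genes that fell with the smallest p encode subunits of the calcium-activated potassium channel and of the L-type calcium channel. KCNMA1 stood at 455, 657 and 831 CPM in Ctrl, at 228.02, 318 and 504 CPM in CHT (-0.86, SE 0.21, adjusted p = 0.00318) and at 87.2, 199.8 and 343 CPM in IR/CHT (-1.70, SE 0.21, adjusted p = 2.76e-07). CACNA2D1 stood at 144, 181.6 and 194.5 CPM in Ctrl, 81.9, 113 and 146 CPM in CHT (-0.65, SE 0.14, adjusted p = 0.00074) and 61, 71 and 111 CPM in IR/CHT (-1.10, SE 0.13, adjusted p = 2.17e-07). CACNB2 stood at 58.8, 77.6 and 99.1 CPM, 30.7, 47.9 and 77.6 CPM (-0.64, SE 0.21, adjusted p = 0.0234) and 19.5, 29.3 and 47.6 CPM (-1.37, SE 0.20, adjusted p = 5.49e-06). For these 3 genes the highest IR/CHT library lay below the lowest Ctrl library, while CHT libraries overlapped with Ctrl. The CHT calls of CACNA2D1 and CACNB2 were lost without Ao CHT L574, and that of CACNB2 also without any of Ao Ctrl L571, Ao CHT L559 and Ao CHT L572. KCNH2 (-0.81) and SCN2A (-0.59) fell under CHT as well, and were lost on leaving out any 1 of 6 and of 10 libraries, respectively.

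KCNAB1 stood at 249.5, 357 and 411 CPM in Ctrl, at 134, 166.9 and 369 CPM in CHT (-0.72, SE 0.28, adjusted p = 0.0547, not called) and at 33.1, 84.4 and 168.8 CPM in IR/CHT (-1.82, SE 0.28, adjusted p = 6.87e-06). CACNA1C stood at 111, 217 and 248.005 CPM, 103, 134 and 214 CPM (-0.49, adjusted p = 0.055) and 52.4, 88.6 and 123 CPM (-1.17, SE 0.19, adjusted p = 1.36e-05). KCNMB1 stood at 80.8, 105 and 134 CPM, 68.4, 82.5 and 122 CPM (-0.19, adjusted p = 0.472) and 24.5, 53.3 and 82 CPM (-0.93, SE 0.18, adjusted p = 0.000116). All 3 fell under IR/CHT, and of them KCNAB1 alone did so without overlap with Ctrl. KCNA5 stood at 26.6, 59.9 and 114 CPM in Ctrl, 16.2, 31.7 and 52.7 CPM in CHT and 18.7, 28.9 and 54.1 CPM in IR/CHT, and fell in both (-1.04, SE 0.30 and -1.01, SE 0.28). KCNJ8 stood at 46.3, 59.9 and 87.8 CPM, 38.5, 47.9 and 54.4 CPM and 25.2, 34.3 and 54.6 CPM, and fell under IR/CHT (-0.66, SE 0.15). Its groups overlapped, and without Ao Ctrl L571 or Ao IR/CHT L582 it was no longer called. KCNH1, a voltage-gated channel best known from brain, stood at 1.64, 3.36 and 7.43 CPM in Ctrl and 0.428, 0.754 and 1.59 CPM in IR/CHT (-2.36, SE 0.55).

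By list, 5 of 14 vascular smooth muscle channels fell and 1, KCNAB2, rose under CHT, and 8 fell and 1 rose under IR/CHT, where 19.4% and 34.3% of all genes were called, with medians of -0.45 and -0.75. All 7 tested calcium- or sodium-activated potassium channel genes were called under IR/CHT: KCNMA1, KCNMB1, KCNMB3 (-0.60), KCNN3 (-0.77) and KCNT2 (-0.73) fell, and KCNN4 and KCNMB4 (1.33) rose. Smooth muscle markers moved the same way, from 84256, 104901 and 118503 CPM in Ctrl to 32763, 57142 and 83954 CPM in CHT and 11948, 31984 and 62945 CPM in IR/CHT. Neither group overlapped with Ctrl, so that treatment and smooth muscle content are largely confounded. A call lost with the smooth muscle score in the fit cannot tell them apart. With the smooth muscle score as a covariate, an alternative added after the data were seen, 3 channel genes were called under CHT and 4 under IR/CHT, where 5.39% and 4.37% of all genes were called in the same fit. The 3 under CHT, SCN3B, KCNIP1 and KCNAB2, were higher, and none of the genes that fell was called, with KCNMA1 at -0.43 with an adjusted p of 0.362, CACNA2D1 at -0.43 with an adjusted p of 0.135 and CACNB2 at -0.22 with an adjusted p of 0.686. The 4 under IR/CHT were KCNMA1 (-1.06), CACNA2D1 (-0.75) and SCN3A (not called without the score), which were lower, and KCNAB2, which was higher. CACNB2 went to -0.70 with an adjusted p of 0.156 there and KCNAB1 to -0.83 with an adjusted p of 0.191, while CACNA1C went to -0.44 with an adjusted p of 0.317, KCNMB1 to -0.22 with 0.603 and KCNA5 to -0.09 with 0.931. Without Ao CHT L574, the library with the fewest smooth muscle markers in CHT, the count under CHT was 9.

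**Figure D3:**
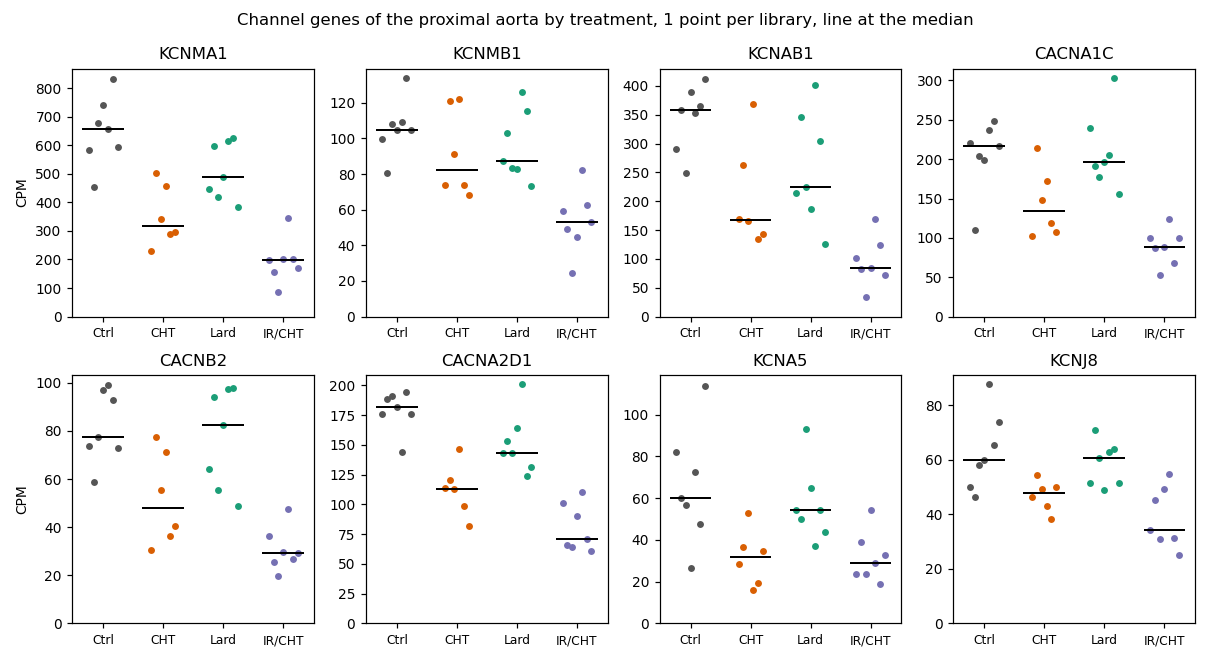
CPM of 8 smooth muscle channel genes in each Ao library by treatment, on linear axes, with a line at the median. IR/CHT medians were below the Ctrl medians in all 8 panels, Lard points overlapped with Ctrl in each, and KCNMA1, KCNAB1, CACNB2 and CACNA2D1 of IR/CHT did not overlap with Ctrl.

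The rises in the aorta described here were those of genes that began at low levels. KCNAB2 (ENSOCUG00000010687), a partner subunit found in leukocytes and other cells, stood at 0.839, 1.4 and 2.83 CPM in Ctrl, 3.6, 11.1 and 17.2 CPM in CHT (2.77, SE 0.39, adjusted p = 4.4e-06) and 8.46, 11.9 and 28.6 CPM in IR/CHT (3.22, SE 0.39, adjusted p = 2.15e-07). KCNIP1 (ENSOCUG00000000540), a calcium-binding partner of potassium channels best known from neurons, stood at 0, 0 and 0.254 CPM, 0.569, 1.47 and 1.87 CPM (4.04, SE 0.70, adjusted p = 8.52e-05) and 0.736, 1.29 and 3.53 CPM (4.45, SE 0.69, adjusted p = 9.94e-06). Neither overlapped with Ctrl in either group. SCN3B, a sodium channel beta subunit, stood at 0.378, 0.777 and 1.48 CPM, 1.99, 2.96 and 5.37 CPM (1.91, SE 0.33, adjusted p = 7.16e-05) and 1.22, 2.69 and 4.01 CPM (1.58, SE 0.32, adjusted p = 0.000191). SCN10A, a sodium channel of sensory neurons, stood at 0, 0 and 0.386 CPM, 0.19, 0.775 and 5.16 CPM (3.84, SE 0.93, adjusted p = 0.00289) and 0.858, 1.51 and 3.37 CPM (4.27, SE 0.92, adjusted p = 0.000408). SCN3B overlapped with Ctrl under IR/CHT alone and SCN10A under CHT alone. No Ao Ctrl library of KCNIP1 or SCN10A reached the count minimum of the filter. Both were tested only through other groups, and their rise is given as a description.

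SCN1A stood at 1.39, 2.92 and 4.97 CPM in Ctrl, 4.17, 8.78 and 13.2 CPM in CHT and 4.23, 12.1 and 22.6 CPM in IR/CHT, and rose in both (1.61, SE 0.42 and 2.08, SE 0.41). KCNQ1, of the slow repolarizing current, stood at 0.193, 0.699 and 1.71 CPM, 0.379, 2.6 and 7.23 CPM and 2.47, 3.31 and 10.6 CPM, and rose in both (1.95, SE 0.61, lost without Ao CHT L559, and 2.59, SE 0.60). CACNA1D rose in both as well (1.24, SE 0.35 and 0.90, SE 0.33), from 0.317, 0.903 and 1.98 CPM in Ctrl to 1.74, 2.12 and 3.22 CPM in CHT. These genes overlapped with Ctrl except KCNQ1 under IR/CHT. KCNN4 stood at 0, 0.192 and 0.444 CPM in Ctrl and 0.491, 1.55 and 4.74 CPM in IR/CHT (3.13, SE 0.74, adjusted p = 0.000958), without overlap, and KCNK13, a two-pore channel of microglia and macrophages, at 0, 0.0707 and 0.895 CPM and 0.307, 0.892 and 3.04 CPM (2.83, SE 0.76). No Ctrl library of KCNN4 reached the count minimum of the filter here, so its rise is a description too.

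Of the 4 leukocyte channels tested, 3 rose under IR/CHT (KCNAB2, KCNN4 and KCNK13) and 1 under CHT (KCNAB2), and none fell, where 34.3% and 19.4% of all genes were called. With the smooth muscle score as a covariate KCNAB2 was still called in both, whereas KCNN4 went to 1.20 with an adjusted p of 0.586 and KCNK13 to 0.96 with an adjusted p of 0.685. Macrophage markers (9 of 10 found) stood at 50.3, 120.3 and 222 CPM in Ctrl, 397, 835 and 1091 CPM in CHT and 676, 1207 and 1930.5 CPM in IR/CHT, and endothelial markers at 115, 189.2 and 227, 198.6, 597 and 1036 and 258.7, 782 and 1158 CPM. Their part in the channel genes was not tested. Of 15 heart muscle channels, 2 rose and 4 fell under CHT and 7 rose and 4 fell under IR/CHT. Among those that rose under IR/CHT were SCN10A, KCNQ1, CACNA1G (1.76), KCNJ2 (1.04), KCNIP2 (1.54) and KCNJ5 (1.62). With the smooth muscle score as a covariate none of these 6 was called, KCNJ2 went to -0.04 with an adjusted p of 0.975 and KCNIP2 to 0.18 with an adjusted p of 0.931. Ao IR/CHT L566 held 3548 CPM of heart muscle markers where the other Ao groups reached at most 342. Without that library the comparison called 26 channel genes, 13 higher and 13 lower. With the heart muscle score as a covariate 22 of the calls under IR/CHT held and 9 were lost, where 28.0% of all genes were called.

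Between IR/CHT and CHT no channel gene of the aorta passed the test. edgeR called 0 of 59 there, where 0.596% of all genes were called, while 16 of the channel genes had an unadjusted p under 0.05 and DESeq2 called 7. KCNMA1, for example, stood at 228.02, 318 and 504 CPM in CHT and 87.2, 199.8 and 343 CPM in IR/CHT (-0.83, SE 0.21, adjusted p = 0.053), and its groups overlapped. Leaving out 1 library gave up to 6 calls, without Ao IR/CHT L579, and 2 or 3 without any of L559, L572, L574, L576 and L578. Lard called SCN10A alone, where 2.61% of all genes were called, 2.57% higher and 0.0406% lower, at 0.126, 0.258 and 3.43 CPM (3.52, SE 0.92, adjusted p = 0.0351). As given above, no Ao Ctrl library of SCN10A reached the count minimum of the filter. The call was lost on leaving out any 1 of 7 libraries, the Ctrl libraries L552, L553, L569, L570 and L571 and the Lard libraries L564 and L577, and with the smooth muscle score as a covariate (3.31 with an adjusted p of 0.0807). Without Lard L563 or L576 3 genes were called.

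In the aortic valve, most of the channel genes tested were lower under IR/CHT. Of 61, 36 were lower and 4 higher than in Ctrl, where 42.8% of all genes were called, 21.7% lower and 21.1% higher. The median over the channel genes was -1.17, against -0.06 over all genes. By role, 11 of 17 voltage-gated potassium alpha subunits were lower and none higher, as were 4 of 5 inward rectifiers, 3 of 4 two-pore channels, and 7 of 10 calcium channel subunits.

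Among potassium channels, KCNA6, a voltage-gated channel best known from nerve, stood at 6.29, 10.5 and 36.3 CPM in Ctrl, 2.49, 3.5 and 13.6 CPM in CHT and 0.715, 1.6 and 2.19 CPM in IR/CHT (-3.36, SE 0.47, adjusted p = 1.37e-06 against Ctrl). KCNQ5 stood at 20.9, 26.1 and 32.5 CPM, 18.2, 21.9 and 27.9 CPM and 7.84, 10.5 and 18.8 CPM (-1.21, SE 0.17, adjusted p = 2.09e-06). KCNH1 stood at 1.52, 6.29 and 16.9 CPM, 1.57, 2.66 and 8.27 CPM and 0.338, 0.864 and 1.12 CPM (-3.28, SE 0.52, adjusted p = 1.08e-05). In all 3 each IR/CHT library lay below each Ctrl library. KCNMA1 stood at 49.4, 73.7 and 85.7 CPM, 48, 61.1 and 91.7 CPM and 18.7, 33.7 and 45.8 CPM (-1.11, SE 0.20, adjusted p = 5.31e-05), also without overlap, while its partner KCNMB1 stood at 7.63, 14.6 and 21 CPM and 12, 14.2 and 23.3 CPM (0.06, adjusted p = 0.847). Both genes of the stretch and G protein-gated channels that set valves apart from aorta on chow fell: KCNK2 stood at 15, 17.7 and 46.9 CPM in Ctrl, 9.94, 20.2 and 36.3 CPM in CHT and 0.311, 8.26 and 10.7 CPM in IR/CHT (-2.12, SE 0.48), and KCNJ5 at 11.1, 24.5 and 31.9 CPM, 9.94, 19.4 and 25.3 CPM and 0.996, 5.53 and 11.6 CPM (-1.96, SE 0.35). KCNK2 did not overlap with Ctrl and KCNJ5 did.

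Several genes of low level fell as well, some to a few counts. KCNV1, a silent potassium channel subunit, stood at 0.158, 0.588 and 1.86 CPM in Ctrl and had 3 counts in all over the IR/CHT libraries (-4.80, SE 0.84). KCNJ9, a G protein-gated rectifier subunit, stood at 0.11, 0.661 and 2.41 CPM in Ctrl and had 9 counts in all under IR/CHT (-3.52, SE 0.74). Both fitted values rest on few counts. Against a floor of 3 counts per library KCNV1 was at least 4.90-fold and KCNJ9 at least 5.21-fold lower. Both passed the filter only through groups other than IR/CHT, so their falls are descriptions, though they stay among the genes counted as lower. KCNS1, another silent subunit, stood at 3.89, 8.49 and 21.8 CPM in Ctrl and 0.278, 1.3 and 3.65 CPM in IR/CHT (-2.69, SE 0.46), and the two-pore channel KCNK1 at 1.1, 2.31 and 4.99 CPM and 0.199, 0.588 and 1.07 CPM (-2.34, SE 0.39). Neither overlapped. KCNS3 (-2.88), KCNIP3 (-2.72), KCNIP2 (-2.56), KCNN2 (-2.29), KCNA5 (-1.77) and KCNJ8 (-1.19) also fell.

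Calcium and sodium channel genes fell too. CACNB2 stood at 27.7, 40.0 and 43.2 CPM in Ctrl, 15.4, 26.4 and 39.2 CPM in CHT and 4.42, 14.1 and 16.4 CPM in IR/CHT (-1.75, SE 0.25, adjusted p = 2.21e-06 against Ctrl). CACNA1C stood at 23.1, 38.3 and 52.2 CPM, 20.8, 30.0 and 37.3 CPM and 13.2, 14.6 and 20.5 CPM (-1.28, SE 0.21, adjusted p = 1.78e-05). SCN2A (ENSOCUG00000005533) stood at 30.6, 48 and 75.4 CPM, 29.7, 37.9 and 47.9 CPM and 7.72, 18.2 and 23 CPM (-1.59, SE 0.21, adjusted p = 5.97e-07). None of the 3 overlapped between IR/CHT and Ctrl. CACNA2D1 fell less (-0.78, SE 0.24) and overlapped. CACNB3 (-1.23), CACNA1G (-2.21) and SCN9A (-1.17) also fell, with overlap.

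The 4 genes higher under IR/CHT in AoV were KCNIP1 (3.49, SE 0.73, adjusted p = 0.000297), KCNAB2 (1.91, SE 0.44, adjusted p = 0.000712), SCN10A (2.65, SE 0.79, adjusted p = 0.0072) and KCNN4 (1.57, SE 0.57, adjusted p = 0.0256). KCNIP1 stood at 0, 0.294 and 0.338 CPM in Ctrl and 0.896, 2.17 and 4.54 CPM in IR/CHT, and KCNAB2 at 3.38, 4.61 and 11.1 CPM and 13.7, 15.6 and 48.8 CPM. Neither of these overlapped with Ctrl, the other pair did, and KCNN4 was lost without AoV Ctrl L198 or AoV IR/CHT L194. No AoV Ctrl library of KCNIP1 reached the count minimum of the filter, so its rise is given as a description. By list, 8 of 13 heart muscle channels, 8 of 12 vascular smooth muscle channels and 6 of 9 neuron and glia channels were lower, where 21.7% of all genes were lower, and 1 of each was higher, SCN10A, KCNAB2 and KCNIP1 in that order. Of the 3 leukocyte channels tested 2 were higher, KCNAB2 among them, and none lower.

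Markers moved with this comparison. Heart muscle markers had their lowest Ctrl library at 225 CPM and the IR/CHT median at 84.2 CPM. Macrophage markers stood at 153.1, 371 and 511 CPM in Ctrl and 2061, 2316 and 2799 CPM in IR/CHT, markers of Schwann cells and neurons at 38.2, 82.4 and 214 CPM and 6.28, 32.5 and 70.7 CPM, and those of T cells at 0.147, 0.368 and 1.48 CPM and 6.59, 15.6 and 27.1 CPM. Smooth muscle markers stood at 1047, 1491 and 2924 CPM and fibroblast markers at 7733, 10177 and 19680.4 CPM in IR/CHT, against 1117, 1284 and 1792 CPM and 7513, 10673 and 14122 CPM in Ctrl, ranges that overlapped. With the heart muscle score as a covariate 27 channel genes and 32.1% of all genes were called. The 27 were all among the 40, and the 13 that were lost included KCNJ8, SCN7A, KCNN4 and SCN10A. Without AoV Ctrl L240, the library richest in heart muscle, 40 were called. On plate 1 alone 31 were called and on plate 2 alone 23, with fewer libraries. The part of the other cell types was not tested.

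**Figure D4:**
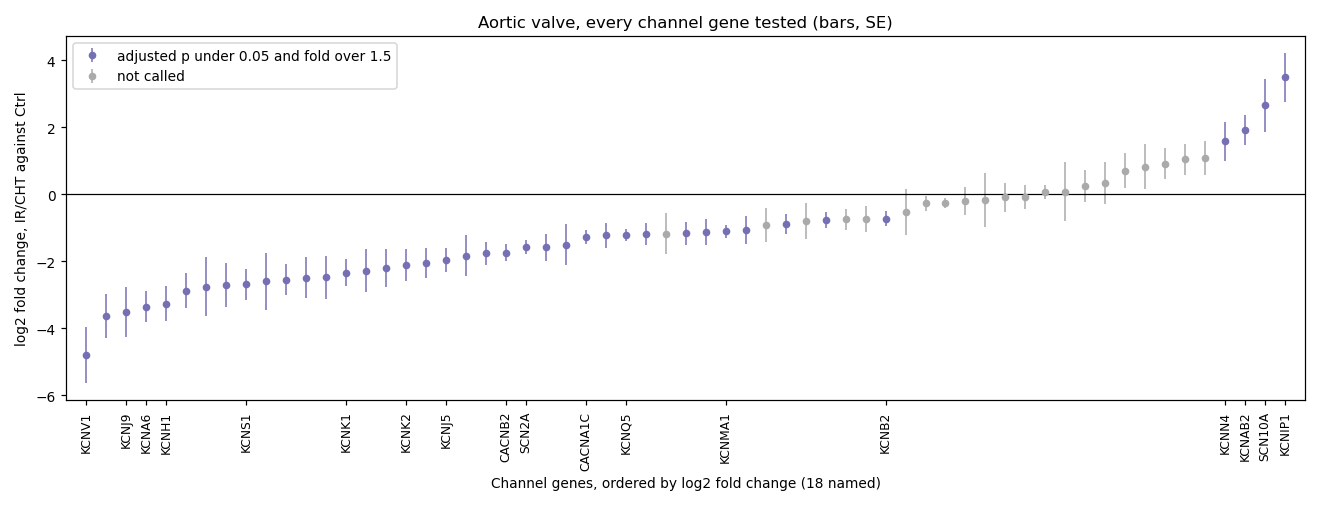
Log2 fold change of IR/CHT against Ctrl with its SE for all 61 channel genes tested in AoV, ordered by size, with called genes in violet, the others in grey, and 18 genes named on the horizontal axis. The 36 lower genes run from KCNV1, which had 3 counts in all under IR/CHT, to KCNB2, and the 4 higher ones are KCNN4, KCNAB2, SCN10A and KCNIP1.

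Against CHT, which shares the diet and vitamin D2, 20 of the 61 channel genes of AoV were lower under IR/CHT and none higher, where 19.7% of all genes were called, 9.85% lower and 9.9% higher. The median over the channel genes was -0.78, and 0.02 over all genes. The levels given above apply, and the fold changes against CHT were -0.97, SE 0.18, adjusted p = 0.000285 for KCNQ5, -1.14, SE 0.21, adjusted p = 0.000332 for SCN2A and -1.26, SE 0.26, adjusted p = 0.000725 for CACNB2. KCNMA1 (-0.97, SE 0.21, adjusted p = 0.00118) and KCNJ5 (-1.65, SE 0.35, adjusted p = 0.00126) completed the 5 with the smallest p. SCN2A and KCNMA1 did not overlap between IR/CHT and CHT, while KCNQ5, CACNB2 and KCNJ5 did. CACNA1C (-0.93, SE 0.22) and KCNA6 (-1.98, SE 0.46) fell without overlap, and KCNK2 (-1.96, SE 0.49) and KCNA5 (-1.08, SE 0.35) with it. Heart muscle markers overlapped between the groups, at 14.4, 70.8 and 379 CPM in CHT and 26.1, 84.2 and 317 CPM in IR/CHT, and all 20 calls held with the heart muscle score as a covariate. Macrophage markers were higher in IR/CHT, and did not overlap with the 781 to 1109.6 CPM of CHT. On plate 1 alone, where all CHT libraries were, 19 channel genes were called, of which 17 are among the 20.

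CHT without irradiation called 4 channel genes of AoV, where 11.9% of all genes were called, 8.42% higher and 3.48% lower. KCNIP1 was higher, at 0, 0.294 and 0.338 CPM in Ctrl and 0.38, 0.822 and 1.69 CPM in CHT (2.16, SE 0.73, adjusted p = 0.0488), without overlap. Its Ctrl libraries did not reach the count minimum of the filter, so this too is a description. KCNA6 (-1.38, SE 0.45, adjusted p = 0.0411) and KCNJ8 (-1.01, SE 0.33, adjusted p = 0.0429) were among those lower, and both overlapped with Ctrl. With the heart muscle score or the plate as a covariate, or on plate 1 alone, none of the 4 was called, and leaving out single libraries gave 0 to 6 calls. KCNIP1, KCNA6 and KCNJ8 were each lost on leaving out any 1 of 10 to 18 libraries.

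In the mitral valve, 7 channel genes were lower and 4 higher under IR/CHT than in Ctrl, of 66 tested, where 17.7% of all genes were called, 6.65% lower and 11.1% higher. SCN2A stood at 37.3, 51.3 and 54.5 CPM in Ctrl, 28.1, 37.8 and 46 CPM in CHT and 16.6, 26.3 and 32.3 CPM in IR/CHT (-0.94, SE 0.15, adjusted p = 5.4e-05 against Ctrl). KCNMA1 stood at 55.5, 67.1 and 85.8 CPM, 29.1, 54.7 and 82 CPM and 18, 28.4 and 48.4 CPM (-1.21, SE 0.22, adjusted p = 0.000179). Each IR/CHT library lay below each Ctrl library for both. KCNQ5 stood at 24.5, 28.5 and 35.1 CPM in Ctrl and 11.7, 17.4 and 28.5 CPM in IR/CHT (-0.67, SE 0.17, adjusted p = 0.00421, lost without L179 or L199), KCNK1 at 0.436, 1.99 and 2.69 CPM and 0.417, 0.713 and 1.65 CPM (-1.32, SE 0.35), and KCNB2, a delayed rectifier, at 13.9, 15.2 and 18 CPM and 7.18, 8.83 and 15 CPM (-0.72, SE 0.20). These overlapped. SCN2B (-0.82) and KCNT2 (-0.70) were the other lower genes, and each was lost without 1 of several libraries. On plate 2 alone SCN2B went to 0.030 with an adjusted p of 0.97.

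The 4 higher genes of MV were KCNIP1, KCNAB2, KCNN4 and SCN10A. No MV Ctrl library of KCNIP1 or SCN10A reached the count minimum of the filter, so the rises of both are descriptions. KCNIP1 had 3 counts in all over the 6 MV Ctrl libraries and stood at 0, 0.47 and 1.43 CPM in CHT and 0.339, 0.954 and 1.4 CPM in IR/CHT (4.20 and 4.76, both resting on those few counts). It was the 1 channel gene of 66 called under CHT, where 5.62% of all genes were called, 4.98% higher and 0.640% lower, and there its libraries overlapped with Ctrl. Under IR/CHT KCNAB2 stood at 4.28, 10.6 and 28.4 CPM against 1.51, 3.35 and 7.3 CPM in Ctrl, with overlap, and rose by 1.81, SE 0.50, adjusted p = 0.00864, KCNN4 by 2.04, SE 0.57, adjusted p = 0.00869 and SCN10A by 3.11, SE 0.98, adjusted p = 0.0192, the last lost without MV IR/CHT L274. On plate 2 alone KCNAB2 was the 1 gene called, and on plate 1 alone 8 were. With fewer libraries on plate 2, KCNIP1 was at 3.64 with an adjusted p of 0.143, SCN10A at 4.93 with an adjusted p of 0.108 and KCNB2 at -0.95 with an adjusted p of 0.0656. Heart muscle markers overlapped between Ctrl (217, 1353 and 2687 CPM) and IR/CHT (330.4, 1477 and 3075 CPM), whereas macrophage markers stood at 166.1, 352 and 576.02 CPM and 765, 1294 and 1581 CPM. The part of these cell types was not tested. In IR/CHT against CHT edgeR called none of the 66, where 0.189% of all genes were called, 0.0522% higher, with 9 at an unadjusted p under 0.05 and 1 by DESeq2.

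The pulmonary and tricuspid valves showed no called channel gene. In PV edgeR called 0 of 52 in 4 comparisons, which are CHT, Lard and IR/CHT each with Ctrl, then IR/CHT with CHT, where 0.159% (0.0484% higher), 0%, 0.706% and 0.0761% of all genes were called, while 5, 2, 13 and 11 channel genes had an unadjusted p under 0.05 and DESeq2 called 1, 0, 1 and 1. In TV edgeR called 0 of 60 in the same comparisons, where 0.163%, 0%, 0.231% and 0% of all genes were called, with 6, 6, 11 and 5 at an unadjusted p under 0.05 and 1, 0, 0 and 0 by DESeq2. Leaving out PV IR/CHT L275 or TV IR/CHT L276 left the edgeR calls of its tissue at 0, and without TV Ctrl L168 edgeR called 2 for IR/CHT against Ctrl. KCNMA1, which fell in the other 3 tissues under IR/CHT, stood at 58.9, 74.8 and 85.7 CPM in Ctrl and 55.8, 71.9 and 174.5 CPM in IR/CHT in PV (0.25, SE 0.22, adjusted p = 0.605) and at 33.1, 42.4 and 59.6 CPM and 15.4, 41.5 and 52.3 CPM in TV (-0.28, SE 0.25, adjusted p = 0.881). Lard called none in AoV (61 tested, 3 at an unadjusted p under 0.05) and none in MV (66 tested, 0 at an unadjusted p under 0.05), by edgeR and by DESeq2, where 0.234% (0.0260% higher) and 0% of all genes were called.

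KCNIP1, KCNAB2, KCNN4 and SCN10A were called higher under IR/CHT in Ao, AoV and MV, tissues that come from the same rabbits. No Ctrl library of KCNIP1 in these 3 tissues, and none of SCN10A in Ao and MV or of KCNN4 in Ao, reached the count minimum of the filter. These genes were therefore tested there only through the other groups, IR/CHT among them, and the shared call is given as a description. Without a filter each of the calls held, but with the smooth muscle score as a covariate KCNIP1 (2.49 with an adjusted p of 0.144), KCNN4 and SCN10A (2.06 with an adjusted p of 0.347) were not called in Ao. None of the 4 was called under Lard in AoV or MV. KCNIP1 stood at 0, 0 and 0.403 CPM in AoV Lard and 0, 0 and 0.303 CPM in MV Lard, and KCNAB2 at 2.66, 4.73 and 10.8 CPM and 1.86, 2.68 and 6.07 CPM. KCNN4 stood at 0.294, 0.439 and 4.28 CPM in AoV Ctrl and 0.28, 0.718 and 1.17 CPM in AoV Lard, and SCN10A at 0, 0.13 and 0.324 CPM in MV Ctrl and 0, 0.342 and 0.681 CPM in MV Lard, with overlap in both. In PV, KCNAB2 stood at 0.423, 0.845 and 2.57 CPM in Ctrl and 1.06, 1.46 and 7.18 CPM in IR/CHT (1.04, SE 0.43, adjusted p = 0.247), and in TV at 0.672, 1.38 and 9.03 CPM and 0.935, 2 and 6.74 CPM (0.05, SE 0.51, adjusted p = 0.998). KCNN4 stood at 0.19, 0.933 and 1.69 CPM in PV Ctrl and 0.316, 0.516 and 0.94 CPM in PV IR/CHT (-0.60, SE 0.37, adjusted p = 0.445), and at 0.183, 0.588 and 0.772 CPM and 0.279, 0.515 and 1.84 CPM in TV (0.37, SE 0.54, adjusted p = 0.98). KCNIP1 and SCN10A did not pass the filter in PV and TV. SCN10A there stood at 0, 0.412 and 0.905 CPM in PV and 0, 0.418 and 0.777 CPM in TV under IR/CHT, against 0, 0.0469 and 0.38 CPM and 0, 0.297 and 0.535 CPM in Ctrl. Whether the responses of these genes to IR/CHT differ between tissues was not tested. KCNIP1 and KCNMB1 lie across each other in the rabbit reference assembly mOryCun1.1, and KCNAB2 overlaps NPHP4, and the study's methods name no strand option among the settings changed from the defaults of the counting workflow, so that reads of such neighbours may be shared. In Ao Ctrl, KCNMB1 had a median of 105 CPM and KCNIP1 one of 0.

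**Figure D5:**
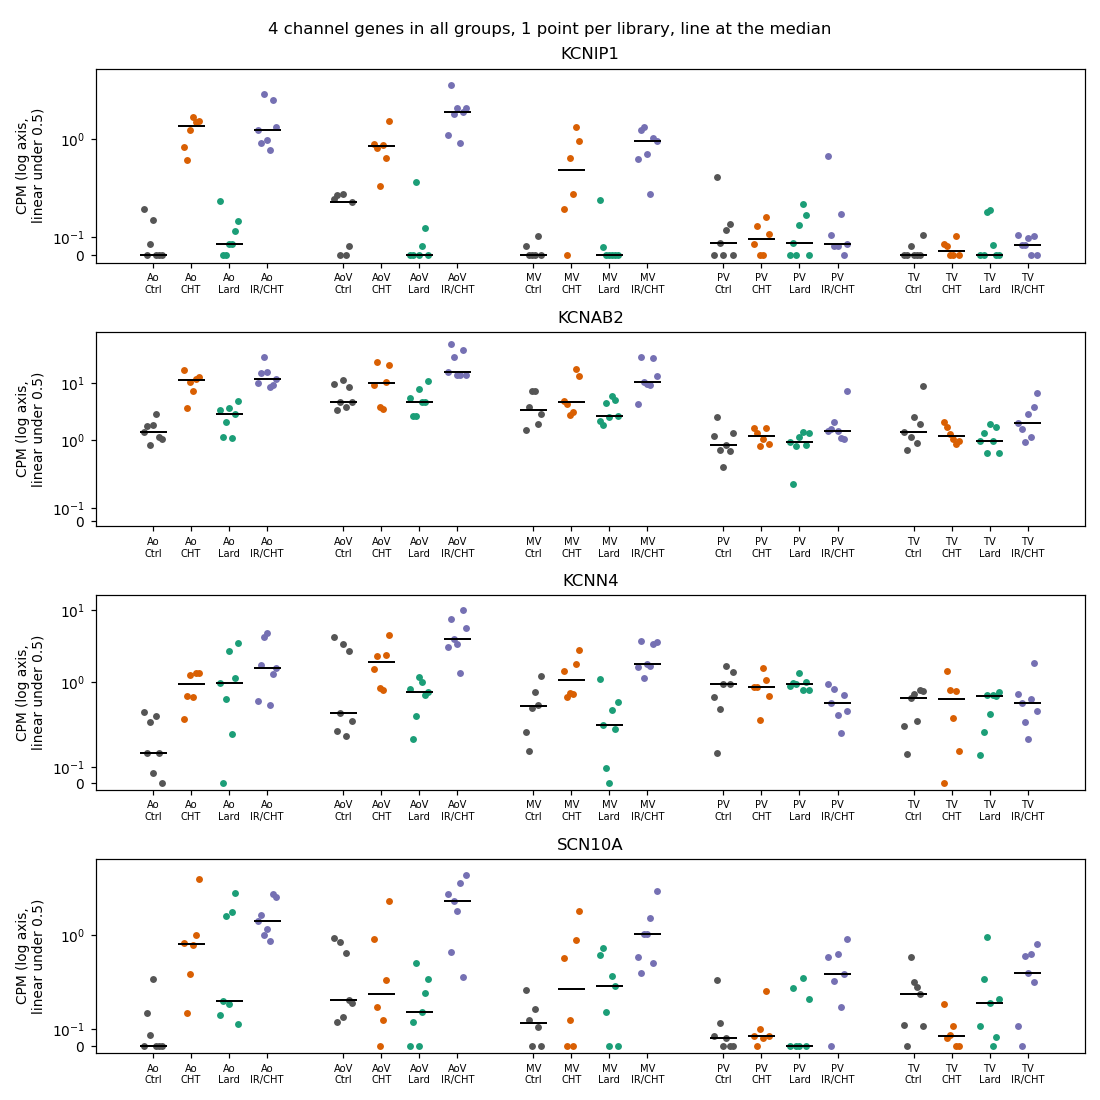
CPM of KCNIP1, KCNAB2, KCNN4 and SCN10A in each library of the 20 groups, with a line at the median; the vertical axes are logarithmic and linear under 0.5 CPM. IR/CHT points lie high in Ao, AoV and MV, and the groups of PV and TV overlap.

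The response of AoV and Ao to CHT was compared directly, as the difference of the change against Ctrl. Of 68 channel genes 2 differed, where 5.3% of all genes did. CACNA1D rose in Ao, and its change in AoV differed from that in Ao by -1.73, SE 0.48, adjusted p = 0.025 on the log2 scale. KCNAB2 rose in Ao as well, and its change in AoV differed from that in Ao by -1.98, SE 0.60, adjusted p = 0.0421. Both were lost with the heart muscle score as a covariate and without a filter on low counts, and KCNAB2 on leaving out any 1 of 15 libraries. The Ao libraries were all on plate 2, the AoV CHT libraries all on plate 1 and the AoV Ctrl libraries on both, and with the plate as a covariate, added after the data were seen, neither was called (adjusted p = 0.0753 for CACNA1D and 0.117 for KCNAB2). Both tissues came from the same rabbits. With the rabbit as a replicate block, also added then, 6 channel genes differed: CACNA1D, KCNAB2, KCNMB4 (-1.97), KCNQ1 (-2.62), SCN10A (-3.80) and, in the other direction, KCNAB1 (1.24).

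The channels work beside pumps, exchangers and calcium release channels, of which 41 of 47 listed genes were found. On chow, 9 of 37 tested were higher and 19 lower in Ao than in valves, where 34.1% of all genes were called, led by FGF13, a partner of sodium channels (4.10, SE 0.12), and the calcium release channels RYR3 (4.95, SE 0.22) and ITPR1 (1.41, SE 0.09). Between MV with TV and AoV with PV, 11 were higher and 3 lower, where 5.82% of all genes were called, among them FGF13 (-1.06, SE 0.13). ABCC8, a partner of ATP-sensitive potassium channels, was at 0 in all 14 outlet valve libraries and at least 13.3-fold higher in MV and TV, against a floor of 3 counts per library. It passed the filter only through libraries of MV or TV, so its difference is a description, and it is among the 11. In Ao under CHT 6 of 34 were higher and 4 lower, where 19.4% of all genes were called, among them the calcium pump ATP2B1 (0.70, SE 0.12) and the store pump ATP2A2 (-0.77, SE 0.15). Under IR/CHT 12 were higher and 8 lower, where 34.3% of all genes were called, with ATP2A2 (-1.06, SE 0.14), FGF13 (-1.77, SE 0.26) and ABCC9, the partner of KCNJ8 (-0.93, SE 0.14), first. Smooth muscle markers fell in these groups as given above, and with their score as a covariate ABCC9 was still called under IR/CHT (-0.73, adjusted p = 0.0425), as was the sodium pump subunit ATP1B1 in CHT (0.65, adjusted p = 0.0222) and IR/CHT (0.80, adjusted p = 0.0314), whereas ATP2A2 (-0.65, adjusted p = 0.083) and FGF13 (-0.80, adjusted p = 0.151) were not, nor were ATP2B1 and ATP2A2 under CHT. Under Lard, where 2.61% of all genes were called, 2 were higher in Ao, ITPR3 (1.19, SE 0.27) and TRPV4 (2.56, SE 0.66), and with the smooth muscle score as a covariate neither was called (1.06, adjusted p = 0.0999 and 2.51, adjusted p = 0.152).

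In AoV under IR/CHT 20 of 36 of these genes were lower and 3 higher than in Ctrl, where 42.8% of all genes were called, with the calcium sensor STIM1 among those lower (-0.93, SE 0.12). Against CHT 7 were lower and 2 higher, where 19.7% of all genes were called, with the anchoring protein ANK2 among those lower (-1.74, SE 0.23). Under CHT 4 were lower and 1 higher, where 11.9% of all genes were called, among them RYR2 (-3.52, SE 0.76) and CASQ2 (-4.14, SE 1.03), both of the calcium store of heart muscle, and ITPR3 (-1.34, SE 0.36). RYR2 was also the 1 gene lower under Lard, where 0.234% of all genes were called (-3.55, SE 0.72). Heart muscle markers were lower in these groups than in Ctrl, as given above. In MV 7 of 36 were lower and 3 higher under IR/CHT, where 17.7% of all genes were called, among them the calcium pump ATP2A3 (2.87, SE 0.45) and ANK2 (-0.79, SE 0.13). ATP2A3 was the 1 called under CHT, where 5.62% of all genes were (2.15, SE 0.44), and ANK2 the 1 called in IR/CHT against CHT, where 0.189% were (-0.70, SE 0.13). The response to CHT differed between AoV and Ao for 6 of 37, where 5.3% of all genes differed, led by ITPR3 (-2.25, SE 0.47), ATP2A3 (2.30, SE 0.60) and ATP1B1 (-0.87, SE 0.23). With the rabbit as a block ATP2A3 was not called (adjusted p = 0.0642), and with the heart muscle score or the plate as a covariate 2 and 3 of the 37 were called.

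Of the 108 channel genes, 33 passed the filter in no tissue, and they were not tested. Most were voltage-gated alpha subunits of potassium channels (11 genes, KCNA1 and KCNC4 among them), inward rectifiers (6) or two-pore channels (6), and 5 of the 6 gamma subunits were with them, as were CACNA1F and CACNA1S, the pore of skeletal muscle. All 33 had a count in at least 1 library. CACNG5, for example, stood at 0.233, 0.46 and 1.48 CPM in AoV Lard. Of the 107 channel genes found in the rabbit reference table of another assembly, 12 lie across another named gene there, among them CACNA1C with DCP1B, CACNA1D with CHDH and DCP1A, CACNA2D3 with LRTM1, KCNIP4 with PACRGL and KCNK15 with RIMS4. Where counting took no account of strand, reads of these pairs cannot be told apart, and values of these genes carry that limit.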

How the data were processed

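Total RNA of rabbit aorta and valves was sequenced with a strand-marking kit from 10 ng of RNA. The authors aligned the reads to the rabbit genome OryCun2.0 with a public RNA-seq workflow and deposited raw read counts per gene in 2 tables, 1 per plate; values are whole counts, not normalized. Totals per library were 13564979 to 50577676.

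From these deposited counts, edgeR 4.0.16 in R 4.3.3 was run per tissue (filterByExpr, TMM scaling, robust quasi-likelihood fit of 4 treatments), and over the Ctrl libraries for tissue comparisons. P-values were adjusted over all genes tested. Calls needed an adjusted p under 0.05 and a change over 1.5-fold, slopes and differences of response the adjusted p alone. CPM used TMM factors over all 134 libraries; folds came from the fits, with a prior count of 2 in log2 CPM, and a fold against libraries all at 0 is a lower bound from 3 counts per library. The test was checked on simulated counts. DESeq2 1.42.0 and other alternatives are given under sensitivity. Marker sums and the heart muscle score were not gene-length corrected.

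The channel genes and lists were chosen with earlier results of these data known. Named were, per comparison, the 5 higher and 5 lower called genes with the smallest p, the most counted gene of each role, measured genes of the channel lists, and the 5 slopes with the smallest p; of other ion handling genes, the 3 with the smallest p. Results of some of these genes are not reported here, though they stay in the counts. Other named genes were chosen after their values were seen. Libraries are separate rabbits within a tissue. Rabbit numbers in column names pair tissues on chow: deviations over all genes tested in the same rabbit correlated at a median r of 0.226 (66 pairs, 50 over 0.1), against -0.0428 in different rabbits (396 pairs). Over all treatments, Ao and AoV of the same rabbit correlated at a median r of 0.209 (27 pairs, 21 over 0.1).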

Additional observations from a re-analysis of the deposited data

Results flagged for a closer look

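In 124 groups of a named gene, 13 held a library whose gap to its nearest neighbour was beyond Dixon's 95% critical value for the group's range. That value flags about 1 group in 20 by chance only where levels are normally distributed, which was not tested for CPM. Of the flagged libraries 10 were at the high end and 3 at the low end. In Ao Ctrl, L551 was lowest for CACNA1C at 111 CPM and highest for CACNA1D at 1.98 CPM, and L571 was lowest for CACNA2D1 at 144 CPM. In Ao CHT, L574 was highest for SCN10A at 5.16 CPM. In Ao IR/CHT, L566, the aortic library with the most heart muscle markers, was highest for KCNAB2 at 28.6 CPM and KCNQ1 at 10.6 CPM, and L579 was highest for KCNH1 at 1.59 CPM.

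In AoV Ctrl, L166 was highest for KCNA6 at 36.3 CPM and lowest for CACNB2 at 27.7 CPM. In AoV CHT, L265 was highest for SCN10A at 2.75 CPM and L244 for KCNV1 at 1.22 CPM. In AoV IR/CHT, L178 was highest for KCNIP1 at 4.54 CPM, and in MV IR/CHT L274 for SCN10A at 3.63 CPM, without which SCN10A was no longer called in MV. The response to CHT differed between AoV and Ao for CACNA1D, by -1.73 on the log2 scale, and for KCNAB2, by -1.98, both by edgeR's interaction term.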

How the results depend on the processing

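Among calls of single channel genes, 145 kept their direction and call with the heart muscle score as a covariate, 43 lost the call and 2 reversed: CACNA2D3 in Ao against valves on chow (0.80) and CACNA1C in MV and TV against AoV and PV (-0.025). With the smooth muscle score in Ao, added after the data were seen, 6 held, 40 were lost and KCNJ2 under IR/CHT reversed (-0.043). Smooth muscle markers of CHT and IR/CHT did not overlap with Ctrl there, so that these losses cannot tell treatment and smooth muscle content apart. On plate 2 alone, also added, SCN2B in MV reversed (0.030).

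Counts of called channel genes moved by over 1.5 times as follows. The smooth muscle score gave 3 under CHT, 0 under Lard and 4 under IR/CHT in Ao. The heart muscle score gave 0 for AoV CHT, 11 for MV and TV against AoV and PV, and 0 for the difference of AoV and Ao. The plate as a covariate gave 0 for AoV CHT, plate 1 alone 0 there, and plate 2 alone 23 for AoV IR/CHT and 1 for MV IR/CHT against Ctrl. Without a filter the counts were 1 for AoV CHT, 1 for PV IR/CHT against Ctrl, 0 for the difference of AoV and Ao, and 1 and 4 for the slopes in AoV and PV. DESeq2 called 4 in Ao Lard, 7 in Ao IR/CHT against CHT, 9 in AoV CHT, 18 in MV IR/CHT against Ctrl, 1 in MV IR/CHT against CHT, 1 each in PV CHT, PV IR/CHT against Ctrl, PV IR/CHT against CHT and TV CHT, and 6 for the difference of AoV and Ao. In each, the cause was not tested, and restricting plates leaves fewer libraries.

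Leaving out 1 library at a time gave 9 to 17 calls in Ao CHT, 0 to 3 in Ao Lard, 26 to 31 in Ao IR/CHT against Ctrl, and 0 to 6 against CHT. In AoV it gave 0 to 6 for CHT (0 to 2 without any of L150, L166, L169, L173, L174, L186, L198, L228, L236, L240, L257 and L261), 36 to 43 for IR/CHT against Ctrl and 17 to 21 against CHT. In MV it gave 9 to 14 for IR/CHT against Ctrl and 0 to 3 against CHT (3 without L157, 1 without L175 or L266), and 3 to 7 slopes. In PV it gave 0 to 1 for CHT (1 without L171) and for IR/CHT against CHT (1 without L250), and 0 to 2 slopes (2 without L188, L230 or L246). In TV it gave 0 to 1 for CHT (1 without L172), 0 to 2 for IR/CHT against Ctrl and 13 to 25 slopes. On chow it gave 42 to 47 and 16 to 23, and for the difference of AoV and Ao 1 to 6 (6 without L151, 5 without L277, 4 without L182, L198 or L552, 1 without any of 12 others). With the rabbit as a replicate block on chow, 46 channel genes were called between Ao and valves and 20 between MV with TV and AoV with PV, and 2 of 65 single calls were lost. With that block the difference of AoV and Ao gave 6, and with the plate as a covariate 0, both added after the data were seen. Within a tissue treatments are compared between rabbits, so that no pairing exists there. Genes near 1 CPM rest on about 14 counts in the smallest library, and no difference is detectable under the floor of 3 counts.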
